A study of Mus musculus with 4 samples.

Results

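The endothelial genes described here are 34 genes of blood and lymphatic vessels, whose RNA was read in whole ears of female mice aged 8 weeks with or without an epithelial knockout of Traf6. A gene was measured where the probe-to-gene table lists a probe set under its symbol alone, and where several were listed the one with the highest average level was to stand for it. This gave 33 measured members among 19938 genes, each read by 1 probe set, while the P-selectin gene Selp was not measured here. The members were sorted by role into 5 activation genes (Sele, Selp, Icam1, Vcam1 and Angpt2), 5 lymphatic genes and 24 genes of blood endothelial identity. The 4 groups were hybridised, with 1 array in each: Traf6EKO skin treated with imiquimod (EKO IMQ), Traf6EKO skin without it (EKO untreated), Traf6f/f skin treated with imiquimod (f/f IMQ) and Traf6f/f skin without it (f/f untreated). Imiquimod (IMQ) is a TLR7 agonist, and IMQ-containing cream was put on the ear at 10 mg per day for 2 days. Traf6f/f mice carry a floxed Traf6 gene. The knockout is epithelial by its label and keratinocyte-specific by the series title, so endothelial cells are not its stated target. The sources used here give neither the promoter that drives the recombinase nor whether untreated ears received a control cream. With 1 array per group there is no replicate error, no difference carries a p-value, and the number of arrays limits the precision. The series description gives n = 2, but nothing in the sources used here says whether 2 mice were pooled on an array.

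Endothelial cells line all vessels and hold their identity through ETS-family and SOX-family transcription factors, a shared set of junction proteins, and the VEGF and TIE receptor systems. In inflamed skin, cytokines such as TNF and IL-1 act through NF-kB to switch on selectins and immunoglobulin-type adhesion molecules in the vessel wall, and these capture rolling leukocytes. TRAF6, a ubiquitin ligase and adaptor, relays signals of Toll-like receptors and of receptors for IL-1 and IL-17. Lymphatic vessels drain fluid and carry dendritic cells to lymph nodes, and their fate is set by the transcription factor PROX1.

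Levels are RMA values on the log2 scale, on which a difference of 1 is 2-fold and a difference of 0.58 is 1.5-fold. Differences run IMQ minus untreated within a genotype, or EKO minus f/f within a treatment, and the difference of the IMQ differences is EKO minus f/f. The floor, the median of all gene means over the 4 arrays, was 6.96. It was reached by 9969 genes and by 23 of the 33 measured members, and the 10 members under it were Sele, Vcam1, Angpt2, Flt4, Prox1, Kdr, Aplnr, Robo4, Icam2 and Sox17. Signal under the floor is compressed toward background, so differences of these 10 genes may be understated. Array medians over all probe sets lay between 6.52 and 6.57. Traf6 had levels of 9.35 (EKO IMQ), 9.65 (EKO untreated), 9.30 (f/f IMQ) and 9.51 (f/f untreated), so neither EKO array read lower than the f/f array of the same treatment. Much of the ear is not epithelium, and the sources used here do not place the probes against the deleted exons, so the Traf6 level cannot check the genotype labels. The 10 endothelial markers used to check for the tissue are themselves members. Of these 10, 8 lay at or above the floor, among them the vascular cadherin gene Cdh5 at 8.07 to 8.42. Of the 5 lymphatic markers, which are the lymphatic members, 3 did so, while Flt4 and Prox1 lay under it on all 4 arrays.

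Of the 4 measured activation genes, Sele and Icam1 were higher with IMQ in f/f skin and differed by 0.04 and 0.01 (log2) in EKO skin. E-selectin (Sele) and Icam1 were about 1.3-fold higher with IMQ in f/f skin, while Vcam1 was lower by about the same amount in both genotypes and Angpt2 was at -0.09 in EKO and 0.11 in f/f on the log2 scale. Sele encodes the selectin that activated endothelium shows to rolling leukocytes. Its level was 6.70 in EKO IMQ and 6.66 in EKO untreated skin, against 7.24 in f/f IMQ and 6.86 in f/f untreated skin. The f/f IMQ array was the only one of the 4 on which Sele passed the floor. The IMQ difference of Sele was 0.04 in EKO and 0.38 in f/f skin. Icam1 encodes a ligand of leukocyte beta-2 integrins and is made by endothelium as well as by keratinocytes and leukocytes. It had levels of 7.96 in EKO IMQ and 7.95 in EKO untreated skin, against 8.42 in f/f IMQ and 8.01 in f/f untreated skin. The 3 arrays other than f/f IMQ lay within 0.06 of each other for Icam1. The IMQ difference of Icam1 was 0.01 in EKO and 0.41 in f/f skin, and the f/f value lay above 84.1% of the genes at or above the floor.

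Vcam1, the endothelial ligand of the integrin VLA-4, did not share this pattern. Its levels were 6.45 in EKO IMQ and 6.64 in EKO untreated skin, against 6.60 in f/f IMQ and 6.82 in f/f untreated skin, all under the floor. Its IMQ differences of -0.19 in EKO and -0.22 in f/f were both negative. Angpt2 encodes a TIE2 ligand that endothelium stores and releases on activation. Its levels ran only from 5.58 (EKO IMQ) to 5.74 (f/f IMQ), a range of 0.17 over the 4 arrays at a level far under the floor. The median IMQ difference of the 4 measured activation genes was -0.04 in EKO and 0.24 in f/f skin, beside medians of -0.01 and 0.00 over the genes at or above the floor. None of the 4 reached 1.5-fold in any of the 5 comparisons.

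**Figure D1:**
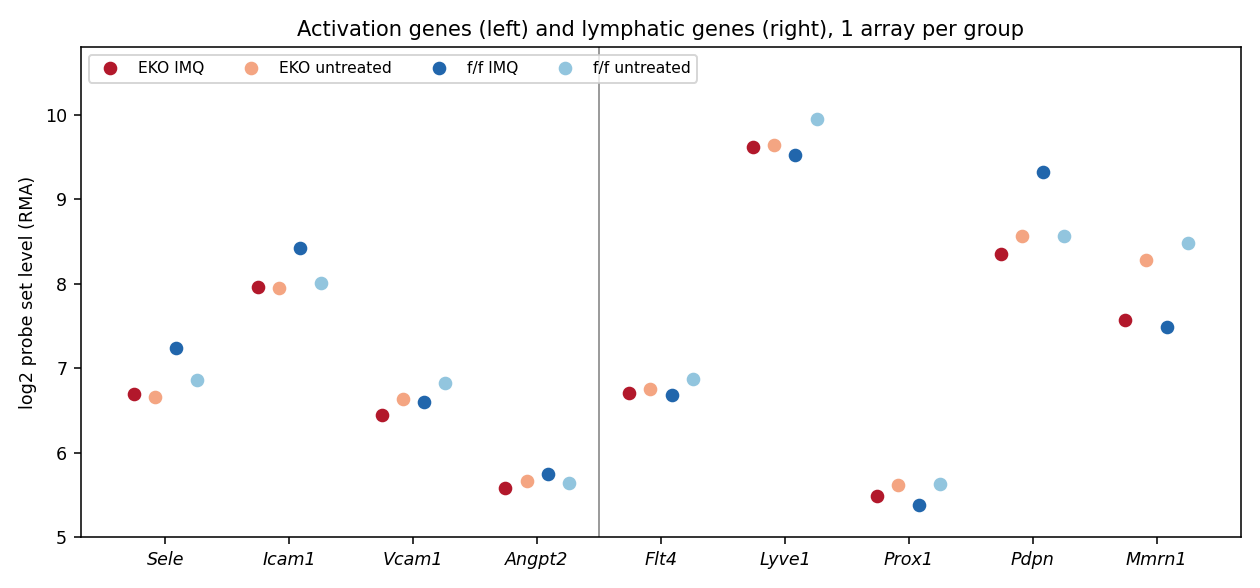
Log2 probe set levels (y axis) of the 4 measured activation genes and the 5 lymphatic genes (x axis), with 1 point per array in the order EKO IMQ, EKO untreated, f/f IMQ, f/f untreated. Sele, Icam1 and Pdpn are highest in f/f IMQ skin (7.24, 8.42 and 9.33), and Mmrn1 is lower with IMQ in both genotypes.

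Because Sele and Icam1 moved together across the arrays, their promoters are shown as RefSeq gives them for GRCm38.p6, limited to the 250 bases before the annotated start. RefSeq windows were found for 18 of the 34 members. The NF-kB consensus was found in 4.46% of all 27025 genes with a window, in 0 of the 3 activation genes with a window (Sele, Selp and Icam1), in 0 of 4 lymphatic genes and in 2 of 11 identity genes (Flt1 and Kdr). The looser form GGANNTTCC was chosen after these windows had been read, so its counts in these genes are no test. On both strands it occurred in 2 of the 3 activation genes with a window (Sele and Icam1, but not Selp). It occurred in 0 of 11 identity genes and 0 of 4 lymphatic genes with a window, and in 4.12% of all genes with a window. Capitals mark it in the windows of Sele (chr1:164047984-164048233, plus strand) and Icam1 (chr9:21015690-21015939, plus strand), where it starts 145 and 153 bases before the annotated start. A match in the letters is a description of the window and no evidence of binding.
Sele: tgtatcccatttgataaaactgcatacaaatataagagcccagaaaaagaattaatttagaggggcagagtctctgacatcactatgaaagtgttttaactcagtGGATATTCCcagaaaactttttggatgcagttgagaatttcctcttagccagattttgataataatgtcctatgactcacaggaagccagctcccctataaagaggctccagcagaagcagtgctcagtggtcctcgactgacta
Icam1: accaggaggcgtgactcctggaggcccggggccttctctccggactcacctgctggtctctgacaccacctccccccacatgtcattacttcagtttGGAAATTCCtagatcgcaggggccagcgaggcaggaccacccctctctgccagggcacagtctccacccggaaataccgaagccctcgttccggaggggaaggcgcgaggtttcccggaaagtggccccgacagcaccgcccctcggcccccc

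All 5 lymphatic genes were lower with IMQ in EKO skin and 4 of the 5 in f/f skin, where Pdpn was higher. Mmrn1 had the lowest IMQ difference of the 5 in both genotypes. Mmrn1, which encodes multimerin 1 and is enriched in lymphatic endothelium, had levels of 7.58 in EKO IMQ and 8.29 in EKO untreated skin, against 7.49 in f/f IMQ and 8.49 in f/f untreated skin. Both IMQ arrays lay below both untreated arrays. Its IMQ difference was -0.71 in EKO (1.63-fold lower) and -0.998 in f/f, just short of 2-fold. Only 0.231% of the genes at or above the floor had a lower IMQ difference in EKO than Mmrn1, and 2.45% in f/f. It was the member with the lowest IMQ difference in either genotype.

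Pdpn encodes podoplanin, a mucin-type protein of lymphatic endothelium that keratinocytes and fibroblasts also make, in keratinocytes above all in wounded or inflamed epidermis. Its levels were 8.35 in EKO IMQ and 8.57 in EKO untreated skin, against 9.33 in f/f IMQ and 8.57 in f/f untreated skin. The f/f IMQ array stood above the other 3, which lay within 0.22 of each other. The IMQ difference was -0.21 in EKO and 0.76 in f/f (1.69-fold higher), and with IMQ the EKO level was 0.97 below that of f/f (1.96-fold). On the same arrays the wound keratin Krt6a read 11.13 in EKO IMQ and 8.32 in EKO untreated skin, against 12.05 in f/f IMQ and 8.20 in f/f untreated skin. All 6 keratinocyte markers were higher with IMQ in both genotypes, beside 46.9% of all named genes in EKO and 48.8% in f/f. The part of keratinocytes in the Pdpn level was not tested.

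Lyve1, a hyaluronan receptor of lymphatic capillaries that some skin macrophages also carry, had levels of 9.63 in EKO IMQ and 9.64 in EKO untreated skin, against 9.53 in f/f IMQ and 9.95 in f/f untreated skin. Its IMQ difference was -0.02 in EKO and -0.42 in f/f, the f/f untreated array being the high one. Of 8 macrophage markers, 5 in EKO and 6 in f/f were lower with IMQ, beside 52.8% and 51.0% of all named genes, and 3 and 2 were higher. Cd163 had the lowest IMQ differences of the 8, at -0.36 in EKO and -1.14 in f/f, against list medians of -0.09 and -0.33. The part of macrophages in the Lyve1 level was not tested. Prox1, the fate-setting transcription factor, stayed between 5.38 and 5.64, with IMQ differences of -0.13 in EKO and -0.25 in f/f. Flt4, the receptor of VEGF-C and VEGF-D, stayed between 6.68 and 6.87, with IMQ differences of -0.04 in EKO and -0.19 in f/f. The median IMQ difference of the 5 lymphatic genes was -0.13 in EKO and -0.25 in f/f, with 5 of 5 lower in EKO, beside 52.8% of all named genes, and 4 of 5 in f/f, beside 51.0%.

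Blood endothelial identity genes were lower with IMQ by small amounts, more so in f/f than in EKO skin. Of the 24, 19 were below 0 in EKO (median -0.10, 1.07-fold), where 52.8% of all named genes were, and 21 in f/f (median -0.33, 1.25-fold), where 51.0% were. Over all members at or above the floor, 19 of 23 were below 0 in EKO, where 52.9% of the genes at or above the floor were, and 20 of 23 in f/f, where 49.5% were. In f/f skin 3 of these 23 were at least 1.5-fold lower (Tek, Cd34 and Mmrn1; Cd34, at -0.54 after median centring, then falls short), beside 9.05% of the genes at or above the floor, and 1 was at least 1.5-fold higher (Pdpn), beside 9.51%. In EKO skin 1 was at least 1.5-fold lower (Mmrn1), beside 0.722%, and 0 were at least 1.5-fold higher, beside 2.36%. No member reached 2-fold in either genotype, beside 3.19% of genes higher and 2.43% lower by that much in f/f and 0.592% and 0.0702% in EKO. In whole tissue, fewer endothelial cells and less RNA per endothelial cell cannot be told apart.

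Among the receptors, Tek, which encodes the angiopoietin receptor TIE2, had the lowest IMQ difference in f/f skin. Its levels were 7.32 in EKO IMQ and 7.70 in EKO untreated skin, against 7.24 in f/f IMQ and 8.07 in f/f untreated skin, and both IMQ arrays lay below both untreated arrays. The IMQ difference of Tek was -0.38 in EKO (1.30-fold lower) and -0.83 in f/f (1.78-fold lower). Its relative Tie1, an orphan-type co-receptor of TIE2, had levels only between 7.03 and 7.15, with IMQ differences of 0.05 in EKO and -0.08 in f/f. The VEGF receptor gene Kdr read 6.36 in EKO IMQ and 6.64 in EKO untreated skin, against 6.28 in f/f IMQ and 6.82 in f/f untreated skin. Flt1, which encodes a VEGF receptor that also acts as a decoy, read 7.12 in EKO IMQ and 7.23 in EKO untreated skin, against 7.04 in f/f IMQ and 7.44 in f/f untreated skin. Both VEGF receptors thus had IMQ arrays below untreated arrays. Their IMQ differences were -0.28 in EKO and -0.54 in f/f for Kdr and -0.11 in EKO and -0.40 in f/f for Flt1.

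The guidance receptor gene Robo4, which is largely restricted to endothelium, differed mainly through its high value in f/f untreated skin. It read 6.49 in EKO IMQ and 6.55 in EKO untreated skin, against 6.43 in f/f IMQ and 6.94 in f/f untreated skin. Ptprb encodes VE-PTP, the phosphatase that restrains TIE2 signalling, and Ramp2 the partner that turns the receptor CALCRL into an adrenomedullin receptor. Their IMQ differences were -0.29 in EKO and -0.43 in f/f for Ptprb, and -0.30 in EKO and -0.47 in f/f for Ramp2. The TGF-beta co-receptor endoglin (Eng) had IMQ differences of -0.07 in EKO and -0.03 in f/f, and the apelin receptor gene Aplnr 0.07 in both. With Tie1, these are the 3 of the 9 receptors whose IMQ differences stayed within 0.1 of 0 in both genotypes. The median IMQ difference of the 9 receptors was -0.11 in EKO and -0.43 in f/f.

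Surface and junction genes ran the same way, apart from Icam2. Emcn encodes endomucin, a sialomucin of veins and capillaries. It read 7.94 in EKO IMQ and 8.34 in EKO untreated skin, against 8.10 in f/f IMQ and 8.64 in f/f untreated skin. Its IMQ differences of -0.40 in EKO and -0.55 in f/f followed from IMQ arrays that both lay below the untreated ones. Cd34, which is also made by fibroblasts and hair follicle bulge cells, read 10.14 in EKO IMQ and 10.46 in EKO untreated skin, against 10.13 in f/f IMQ and 10.72 in f/f untreated skin. Of 4 bulge markers, 2 were lower with IMQ in EKO, beside 52.8% of all named genes, and 4 in f/f, beside 51.0%. Krt15 had the lowest IMQ differences of the 4, at -0.63 in EKO and -1.94 in f/f, against list medians of -0.11 and -0.54. The part of other cells in the Cd34 level was not tested. The claudin of endothelial tight junctions (Cldn5) had IMQ differences of -0.16 in EKO and -0.36 in f/f, VE-cadherin (Cdh5) -0.19 in EKO and -0.35 in f/f, the junctional molecule gene Esam -0.09 in EKO and -0.34 in f/f, and Pecam1 (CD31) -0.07 in EKO and -0.26 in f/f. Icam2, a constitutive integrin ligand of resting endothelium, was the exception, with IMQ differences of 0.26 in EKO and 0.16 in f/f at levels of 6.33 to 6.59.

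All 3 transcription factors lay lower with IMQ in both genotypes. The ETS factor gene Erg read 7.52 in EKO IMQ and 7.73 in EKO untreated skin, against 7.58 in f/f IMQ and 7.91 in f/f untreated skin. The IMQ differences were -0.20 in EKO and -0.33 in f/f for Erg, -0.10 in EKO and -0.25 in f/f for Sox18, and -0.07 in EKO and -0.28 in f/f for Sox17. Sox18 acts in early lymphatic as well as blood vessel development, and Sox17 in arterial endothelium.

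Of the secreted, diaphragm and enzyme genes, Plvap was the identity gene with the highest IMQ difference in f/f skin. PLVAP forms the diaphragms of fenestrae and caveolae and bears on the passage of plasma proteins and leukocytes. Its levels were 7.54 in EKO IMQ and 7.33 in EKO untreated skin, against 7.78 in f/f IMQ and 7.39 in f/f untreated skin. Both IMQ arrays lay above both untreated arrays, and the IMQ difference was 0.21 in EKO and 0.38 in f/f. Von Willebrand factor (Vwf), the clotting protein stored with P-selectin, had IMQ differences of 0.02 in EKO and -0.32 in f/f. The others, Egfl7 (a secreted vessel matrix factor), Nos3 (endothelial nitric oxide synthase) and Mmrn2 (a vascular matrix protein), had IMQ differences of -0.23, -0.03 and -0.05 in EKO skin and of -0.18, -0.18 and -0.11 in f/f skin.

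**Figure D2:**
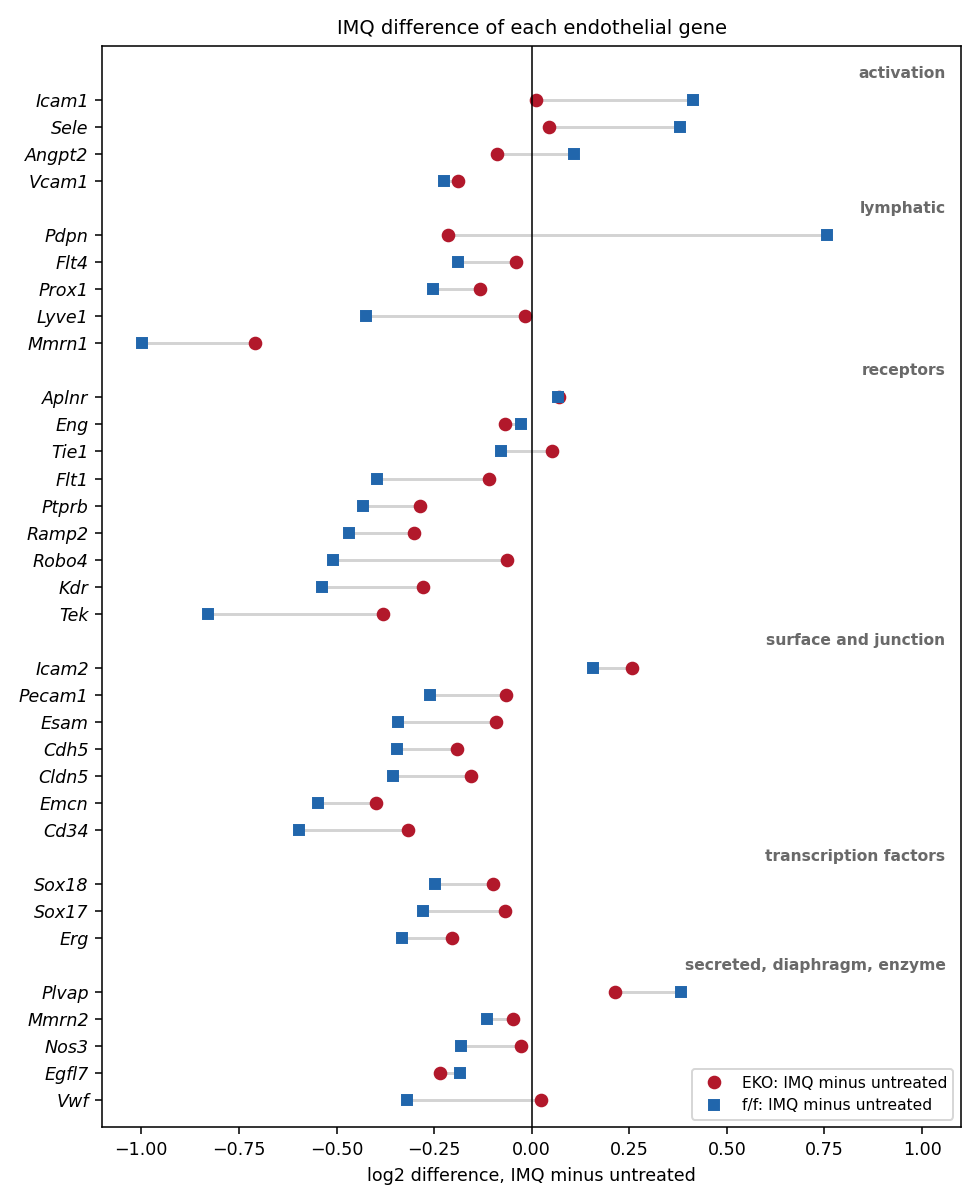
Log2 IMQ difference (x axis) of each measured member, grouped by role, with a circle for EKO and a square for f/f skin. Squares lie left of circles for most identity genes (median -0.10 in EKO, -0.33 in f/f), while Sele, Icam1 and Pdpn have squares to the right of 0 and circles near or left of it.

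The IMQ difference was above that of f/f in EKO skin for 21 of the 24 identity genes, with a median difference of the differences of 0.15. Above 0 here were 18 of the 23 members at or above the floor, beside 46.6% of the genes there and 49.1% of all named genes. Across the 24 genes the IMQ differences in EKO and f/f, which share no array, had a Pearson r of 0.861 and a Spearman rho of 0.826, given as a description since the genes are read on the same 4 arrays and come from the same cells. The identity genes thus kept a similar order of IMQ differences in both genotypes at different sizes. For all 33 measured members r was 0.667 and rho 0.680, and no value over all genes is given. The narrower spread in EKO skin was shared by the genes at or above the floor. Their lower and upper quartiles with IMQ were -0.14 and 0.11 (EKO), while those in f/f skin were -0.26 and 0.26. For the activation genes the difference of differences had the opposite sign, with a median of -0.27, and the gene values were -0.34 for Sele, -0.40 for Icam1, -0.20 for Angpt2 and 0.03 for Vcam1. Pdpn had the lowest difference of differences of all members at -0.97, and 1 of the 23 members at or above the floor was at least 1.5-fold lower in this comparison, beside 4.12% of the genes at or above the floor.

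The median of the identity genes within the same comparison was then subtracted, -0.33 for IMQ in f/f skin. On this scale the activation genes with IMQ in f/f stood at 0.74 for Icam1, 0.71 for Sele, 0.43 for Angpt2 and 0.10 for Vcam1. Much of each value is thus the subtracted median. The identity genes under the floor ran from -0.21 (Kdr) to 0.48 (Icam2), a range that holds Angpt2 and Vcam1. The part of other cells in the Icam1 level was not tested. In EKO skin, less the identity median of -0.10, the values were 0.11 for Icam1, 0.14 for Sele, 0.01 for Angpt2 and -0.09 for Vcam1. Plvap stood at 0.31 in EKO and 0.71 in f/f on this scale. Mmrn1 stood at -0.61 in EKO and -0.67 in f/f, so its lower level with IMQ went beyond that of the identity genes in both genotypes by a like amount.

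Without IMQ, nearly all members read slightly lower in EKO than in f/f skin. The genotype difference was below 0 for 31 of the 33 members, beside 50.8% of all named genes, and for 23 of the 23 at or above the floor, where 43.8% of the genes at or above the floor were below 0. The median over the 24 identity genes was -0.21 (1.16-fold lower), beside 0.02 over the genes at or above the floor. No member reached 1.5-fold, beside 0.893% of genes lower and 0.712% higher by that much. The lowest values were -0.39 for Robo4, -0.37 for Tek, -0.32 for Pecam1, -0.31 for Emcn, Lyve1 and Ptprb, and -0.29 for Cldn5. Aplnr and Angpt2 were the exceptions at 0.00 and 0.03.

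With IMQ the identity genes of the genotypes lay close together, and activation genes and Pdpn were lower in EKO. Of the 24 identity genes, 13 were below 0, beside 52.4% of all named genes, and the median was -0.03, with a lowest value of -0.25 (Eng) and a highest of 0.13 (Ramp2). All 4 measured activation genes were lower in EKO than in f/f skin with IMQ, by 0.54 for Sele, 0.46 for Icam1, 0.17 for Angpt2 and 0.15 for Vcam1, for a median of -0.31. Of the genes at or above the floor, 49.7% were below 0 in this comparison, 2.54% were lower than Sele and 3.58% lower than Icam1. Of the 23 members at or above the floor, 14 were below 0 and 1 was at least 1.5-fold lower (Pdpn), beside 2.12%.

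**Figure D3:**
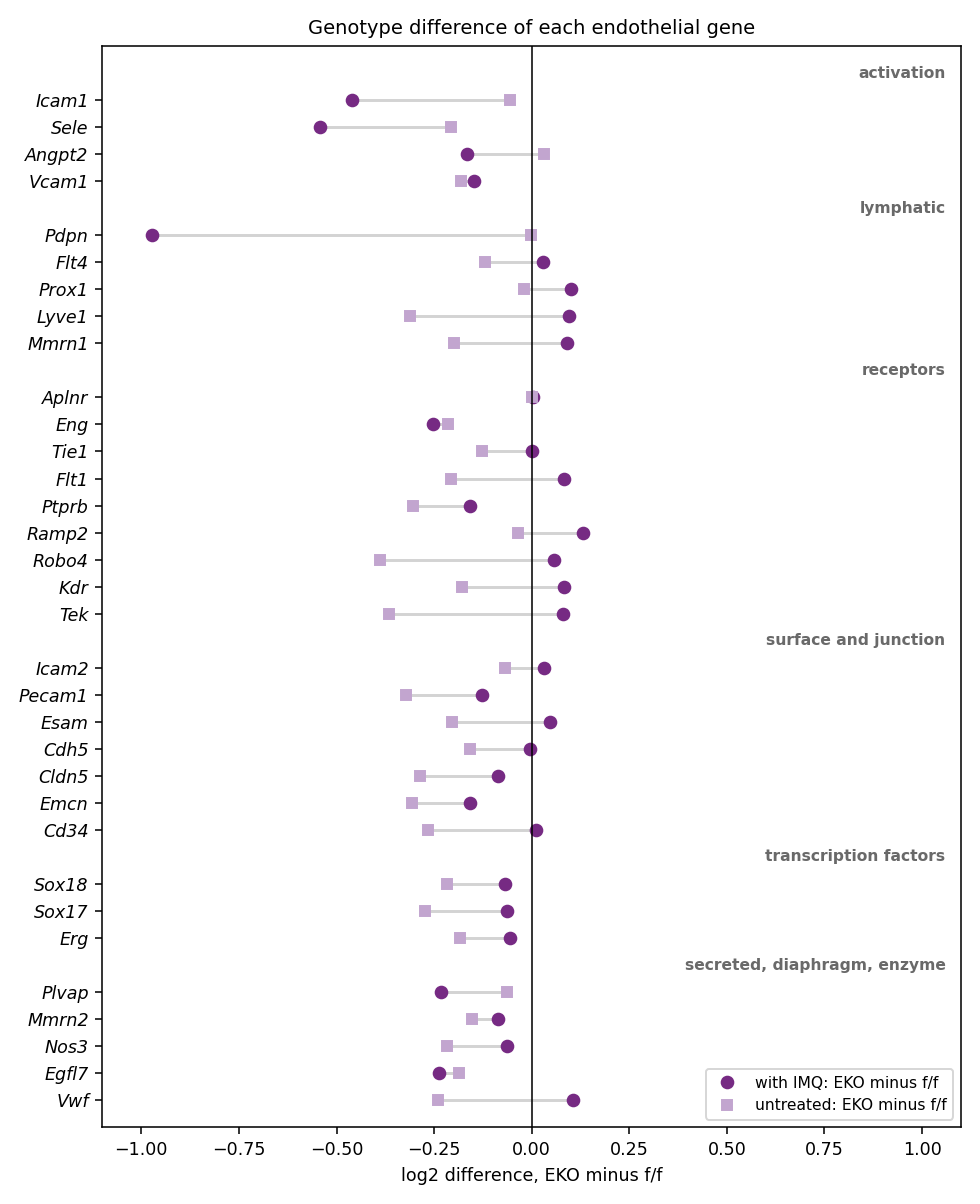
Log2 genotype difference (x axis, EKO minus f/f) of each measured member, with a circle for skin with IMQ and a square for untreated skin. Squares lie left of 0 for 31 of 33 members, while circles of identity genes scatter around 0 (median -0.03) and those of Pdpn, Sele and Icam1 lie at -0.97, -0.54 and -0.46.

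The f/f untreated array held the highest value of the 4 for 21 of the 24 identity genes, and for 30.6% of the genes at or above the floor. It enters the IMQ difference in f/f, the untreated genotype difference and the difference of the IMQ differences, so these comparisons share it. The IMQ difference in EKO and the genotype difference with IMQ do not use it, and the identity medians there were -0.10 and -0.03. The EKO IMQ array held the lowest value for 12 of the 24, the f/f IMQ array for 8 and the EKO untreated array for 3, beside 16.4%, 36.5% and 11.2% of the genes at or above the floor. Each identity gene centred on its own mean had a median of -0.12 in EKO IMQ, -0.02 in EKO untreated, -0.09 in f/f IMQ and 0.21 in f/f untreated skin.

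**Figure D4:**
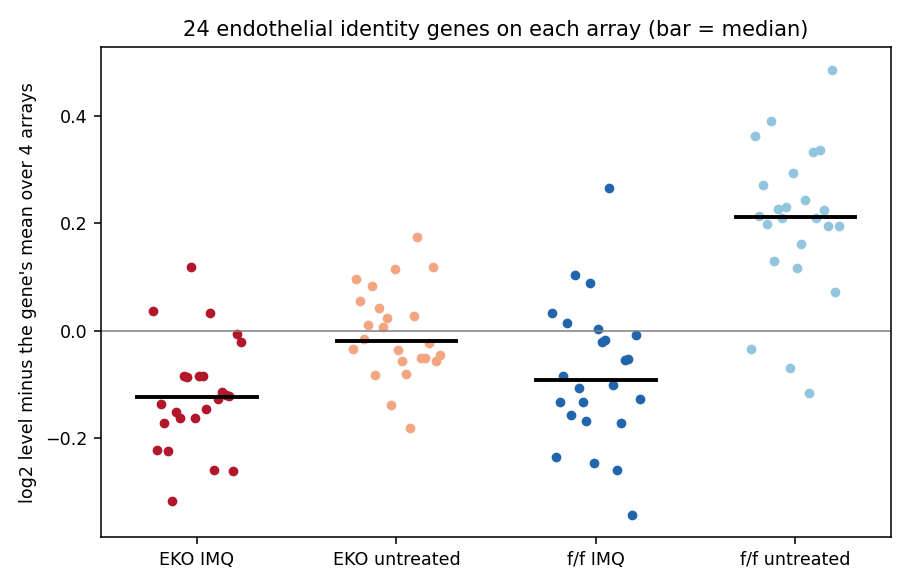
Log2 level of the 24 identity genes minus each gene's mean over the 4 arrays (y axis) by array (x axis), with a point per gene and a bar at the median. The f/f untreated array has the highest median (0.21) and 21 of 24 genes above their own mean.

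The windows of identity genes were searched for AGGAAG, an ETS-type motif, on both strands. It was found in 8 of the 11 identity genes with a RefSeq window (Cd34, Egfl7, Emcn, Eng, Erg, Flt1, Robo4 and Tie1), in 2 of the 3 activation genes with a window (Sele and Selp), in 0 of 4 lymphatic genes, and in 32.3% of all 27025 genes with a window. Tek, Kdr and Cldn5 had windows without it. Several genes have more than 1 window, and the median GC content was 58.0% over the 15 identity windows and 52.4% over all windows. The 3 windows below belong to the genes with a match that had the lowest IMQ differences in f/f skin, namely Cd34 (-0.60, chr1:194938571-194938820), Emcn (-0.55, chr3:137340828-137341077) and Robo4 (-0.51, chr9:37401722-37401971), all on the plus strand of GRCm38.p6 with AGGAAG or its reverse complement in capitals.
Cd34: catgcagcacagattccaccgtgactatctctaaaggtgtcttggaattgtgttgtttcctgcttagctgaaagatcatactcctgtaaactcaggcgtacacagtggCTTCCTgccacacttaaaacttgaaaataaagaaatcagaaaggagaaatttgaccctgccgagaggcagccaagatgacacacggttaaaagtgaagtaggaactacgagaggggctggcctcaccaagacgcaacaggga
Emcn: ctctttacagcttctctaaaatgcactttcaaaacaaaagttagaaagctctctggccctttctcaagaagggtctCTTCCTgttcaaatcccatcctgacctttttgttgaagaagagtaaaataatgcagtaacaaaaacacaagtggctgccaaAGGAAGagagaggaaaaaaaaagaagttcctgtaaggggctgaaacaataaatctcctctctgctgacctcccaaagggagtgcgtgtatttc
Robo4: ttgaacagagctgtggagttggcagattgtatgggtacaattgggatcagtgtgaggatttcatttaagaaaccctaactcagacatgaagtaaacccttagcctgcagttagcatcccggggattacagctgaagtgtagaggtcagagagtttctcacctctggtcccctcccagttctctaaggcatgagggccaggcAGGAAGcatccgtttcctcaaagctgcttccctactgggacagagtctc

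The VEGF and related genes were mostly lower with IMQ in both genotypes, and the Notch, ephrin, BMP and flow list had medians near 0. Of 11 ligands and co-receptors of the VEGF, angiopoietin, apelin and adrenomedullin systems, 11 were below 0 with IMQ in EKO (median -0.15) and 9 in f/f (median -0.34). Of all named genes, 52.8% were below 0 in EKO and 51.0% in f/f. Among those at or above the floor, the largest IMQ differences in f/f were those of the ligand gene Vegfb (-0.23 in EKO, -0.65 in f/f), the co-receptor gene Nrp1 (-0.23 in EKO, -0.61 in f/f), the lymphatic growth factor gene Vegfd (-0.14 in EKO, -0.41 in f/f) and Calcrl (-0.20 in EKO, -0.41 in f/f). Of 14 Notch, ephrin, BMP and flow-responsive genes, 9 were below 0 in EKO (median -0.03) and 6 in f/f (median 0.04). In f/f skin 2 of the 14 rose by 1.5-fold or more, both with means at or above the floor, where 9.51% of genes did so. These were the anticoagulant receptor genes Procr (0.10 in EKO, 0.78 in f/f) and Thbd (0.21 in EKO, 0.71 in f/f), both of which are also known from cells other than endothelium. S1pr1, the sphingosine phosphate receptor that stabilises junctions, had IMQ differences of -0.27 in EKO and -0.49 in f/f, and Notch4 of -0.02 in EKO and -0.34 in f/f.

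Genes that act on the activation genes or bind their products were mostly higher with IMQ in f/f skin, and fewer of them in EKO skin. Of 8 cytokine genes known to activate endothelium, 5 were above 0 in EKO, beside 46.9% of all named genes, and 8 in f/f, beside 48.8%. Of the 8, 7 had means under the floor, all but Il1a. Their differences ran from -0.03 to 0.81 in EKO (median 0.01) and from 0.01 to 3.88 in f/f (median 0.61). Il1b was at 0.81 in EKO and 3.88 in f/f, and Il1a at 0.31 in EKO and 2.04 in f/f. Of 6 NF-kB feedback genes, 3 were above 0 in EKO, near the share of all named genes, and 6 in f/f. Bcl3 had the largest IMQ difference of the 6 in f/f and was higher in both genotypes (0.79 in EKO, 2.26 in f/f). Tnfaip3 (-0.31 in EKO, 0.53 in f/f) and Nfkbia (-0.33 in EKO, 0.36 in f/f) were lower in EKO. Among 7 measured leukocyte counter-receptors, 4 were above 0 in EKO and 5 in f/f, beside 46.9% and 48.8% of all named genes. The integrin genes Itgam (0.94 in EKO, 1.08 in f/f) and Itgb2 (0.40 in EKO, 0.60 in f/f), which pair to bind ICAM-1, were higher in both genotypes. The selectin ligand and hyaluronan receptor gene Cd44 was at 0.52 in EKO and 1.54 in f/f, while the selectin ligand gene Selplg was at -0.13 in EKO and -0.01 in f/f. Itga4, the VLA-4 subunit that binds VCAM-1, was at -0.01 in EKO and -0.33 in f/f.

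Marker lists of other cells in the ear moved with IMQ and genotype as well. Mean log2 levels of the 6 adipocyte markers were 9.42 in EKO IMQ and 9.99 in EKO untreated skin, against 8.87 in f/f IMQ and 10.52 in f/f untreated skin, and those of the 6 muscle markers were 10.70 in EKO IMQ and 11.02 in EKO untreated skin, against 10.16 in f/f IMQ and 11.24 in f/f untreated skin. All 6 of each list were lower with IMQ in both genotypes, beside 52.8% of all named genes in EKO and 51.0% in f/f. So were all 6 fibroblast markers, with medians of -0.27 in EKO and -0.33 in f/f, beside -0.10 and -0.33 for the identity genes. Without IMQ, all 6 adipocyte, 6 muscle, 6 fibroblast and 8 macrophage markers were lower in EKO than in f/f. Of all named genes, 50.8% were. The macrophage median there was -0.22, beside -0.21 for the identity genes. With IMQ, all 6 adipocyte and all 6 muscle markers were higher in EKO than in f/f, with medians of 0.60 and 0.50, beside -0.03 for the identity genes. Of 10 pericyte and smooth muscle markers, 5 in EKO and 8 in f/f were lower with IMQ, beside 52.8% and 51.0% of all named genes, and 5 and 2 were higher. Among those lower in both genotypes were Rgs5 (-0.26 in EKO, -0.86 in f/f) and Pdgfrb (-0.39 in EKO, -0.49 in f/f). Keratinocyte markers averaged 12.40 in EKO IMQ and 11.27 in EKO untreated skin, against 12.64 in f/f IMQ and 10.87 in f/f untreated skin. All 6 of them were higher with IMQ in both genotypes, beside 46.9% of all named genes in EKO and 48.8% in f/f. Without IMQ all 6 were higher in EKO than in f/f skin, where 50.8% of all named genes were lower. Neutrophil markers averaged 6.10 in EKO IMQ and 5.49 in EKO untreated skin, against 7.96 in f/f IMQ and 5.37 in f/f untreated skin, and 5 of the 8 had means under the floor. Of 5 measured platelet markers, 4 lay under the floor and Pf4 stayed between 9.07 and 9.11 on the 4 arrays. The part of tissue composition in the endothelial differences was not tested.

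**Figure D5:**
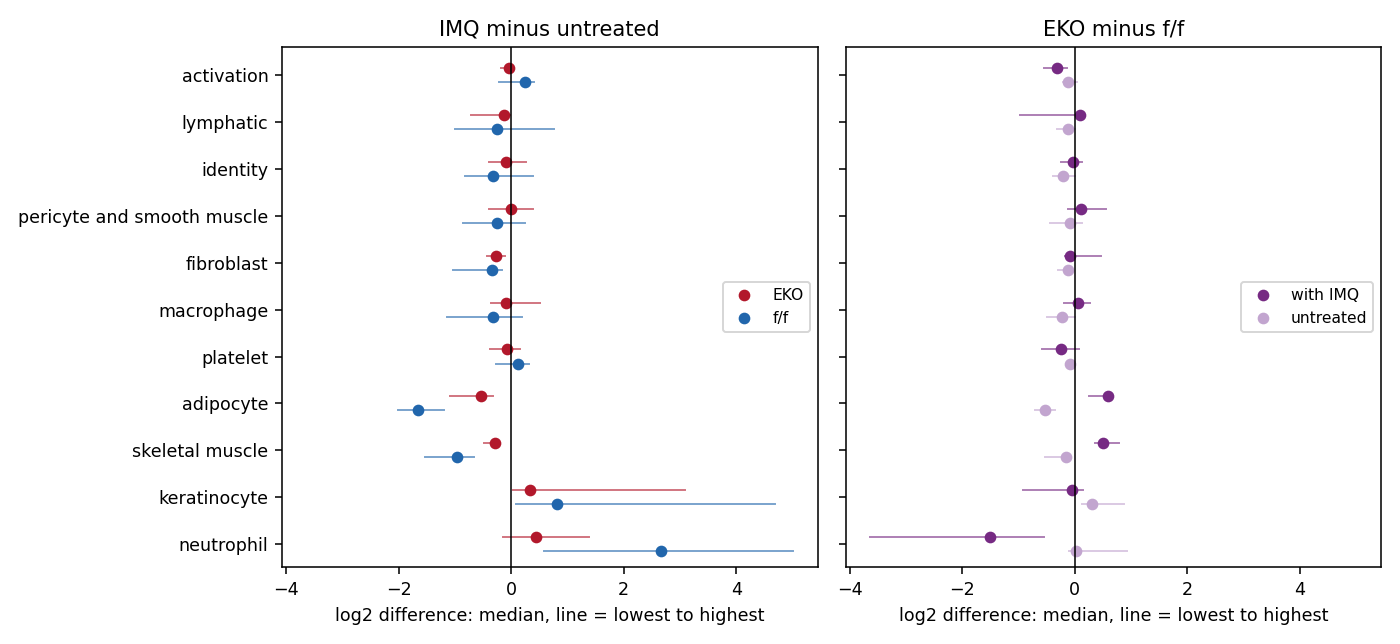
Median log2 difference (x axis, points) and lowest to highest member (lines) for the endothelial roles and for marker lists of other cells (y axis), with IMQ differences at left and genotype differences at right. Adipocyte (-1.66) and muscle (-0.96) medians lie below the identity median (-0.33) with IMQ in f/f skin, and keratinocyte and neutrophil medians lie above 0. Fibroblast (-0.33), macrophage (-0.33) and pericyte and smooth muscle (-0.26) medians lie near the identity median there.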

How the data were processed

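Total RNA of whole mouse ears was amplified, labelled and hybridised to Affymetrix Mouse Gene 1.0 ST arrays, per the labels' protocols and the series description. Per the submitters' processing notes the authors made the values with RMA, which corrects background, equalises distributions and sums probes; its version and annotation are not stated there. The range of the deposited values, 2.58 to 13.8, shows a log2 scale. RMA equalises the arrays' distributions and so hides a shift common to most genes. The platform annotation pairs 21789 of the 35556 probe sets with a single gene symbol. The 1621 with several symbols and the 12146 it does not list were not used. A second probe set for Ramp2, shared with Malat1, was left out. All 33 symbols of measured members matched RefSeq gene names by Entrez identifier. No positions of probe sets are given.

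Log2 differences were computed for 5 comparisons with Python 3.11.15, numpy 2.4.6 and pandas 2.3.3 (figures with matplotlib 3.10.9), and set beside the same counts over the genes at or above the floor. No test was run: with 1 array per group, a fit averaged over the other factor would take the genotype-by-IMQ difference as its error. The counting was run on simulated data (IMQ in f/f, 19938 genes), where 200 of 200 genes changed by over 2-fold were counted, with 0 others. The simulated noise was far smaller than these changes, so this checks the arithmetic only and not how reliable a real difference is. Members, roles, gene lists and the naming rule were chosen with earlier results of these data known. The rule names any member and list genes with a 2-fold difference in any comparison. It also names up to 4 genes per other list with the largest IMQ difference in f/f among those at or above the floor. Traf6 is named as the targeted gene and, outside the rule, Selplg is named beside Cd44. Alternatives were median centring, quantile normalization and cyclic loess (limma 3.58.1, R 4.3.3), the mean of probe sets, no floor, the mean in place of the median, and leaving out members known from other skin cells.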

Additional observations from a re-analysis of the deposited data

Results flagged for a closer look

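The IMQ differences of 4 members and of 1 role had opposite signs in EKO and f/f skin, with 1 array per group, and this difference was not tested. The difference of the IMQ differences (EKO minus f/f) was -0.97 for Pdpn (-0.21 in EKO, 0.76 in f/f), 0.34 for Vwf (0.02 in EKO, -0.32 in f/f), -0.20 for Angpt2 (-0.09 in EKO, 0.11 in f/f) and 0.13 for Tie1 (0.05 in EKO, -0.08 in f/f). For the activation genes the 2 medians (-0.04 in EKO, 0.24 in f/f) differed by -0.28, and the median of the genes' own differences of differences was -0.27. For Vwf, Angpt2 and Tie1 at least 1 of the values lies within 0.1 of 0, so the change of sign rests on a small value.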

How the results depend on the processing

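Rescaling the arrays (median centring, quantile normalization, cyclic loess) shifted no difference of a single member by 0.1 or more, the largest shift being 0.0962 (quantile normalization). All 15 role medians stayed within 0.1 under these scalings, under the mean of probe sets, and without Icam1, Vcam1, Pdpn, Cd34 and Lyve1. With members at or above the floor only, lymphatic medians moved to -0.42 (IMQ in f/f) and 0.29 (difference of the IMQ differences), and activation, then Icam1 alone, to 0.41 (IMQ in f/f), -0.46 (genotypes with IMQ) and -0.40 (difference of differences). The mean in place of the median gave -0.13 for lymphatic genes (EKO against f/f with IMQ) and turned their difference of differences to -0.0013 from 0.15, Pdpn being at -0.97. Without the floor, members above 0 numbered 7 (IMQ in EKO), 7 (IMQ in f/f), 15 (EKO against f/f with IMQ) and 2 (EKO against f/f untreated), since more genes are counted. Median centring left 2 members (without Cd34) at least 1.5-fold lower with IMQ in f/f, put 1 member above 0 in untreated EKO against f/f and 1 at least 2-fold lower in the difference of differences (Pdpn). No paired analysis was possible because each group holds 1 array and the labels give no replicate numbers. The number of arrays limits all values, and members under the floor, near background, may be understated.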
